A study of Rattus norvegicus with 8 samples.

Results

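The later stretch of a hypobaric hypoxia time course was examined across genes, by setting the 2 arrays titled day 7 against the 2 arrays titled day 3. These are 4 of the 8 arrays of the series, and 21296 genes were tested. Total RNA (500 ng) came from the hippocampus of male Sprague Dawley rats and was labelled with Cy3 for single-colour Agilent arrays, 1 array per sample. The day 7, day 3 and day 1 animals had been kept in decompression chambers at the pressure of 25000 ft, with 8% effective oxygen, and the normoxia group was the unexposed control. The labels give no age. The 2 day 7 arrays carry 5 days in the field for exposure time, so the labels do not settle how long the interval was. Whether the 2 arrays of a group stand for 2 animals is not stated, so the p-values cover the spread between these arrays only, which may be technical. Over probes with repeated spots, the median difference within a group was 0.0287 log2 for day 7 and 0.0232 for day 3, against 0.0226 and 0.0188 from the variation between spots alone.

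In low oxygen, hypoxia-inducible factors (HIFs) are stabilised and switch on genes for glucose uptake, glycolysis, vessel growth and red blood cell production. Over days of exposure the early response is known to be modified as breathing, blood and vessels adapt. Sterol synthesis and desaturation of fatty acids use molecular oxygen directly, as does mitochondrial respiration. The hippocampus borders the choroid plexus, ependyma and leptomeninges, so markers of these tissues were measured beside those of hippocampal neurons, glia and vessels.

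Values are log2 signals relative to the 75th percentile of an array. Changes are the day 7 mean minus the day 3 mean ± SE from limma, with n = 2 arrays per group, and p-values are adjusted over all 21296 genes by the Benjamini-Hochberg method. Genes are described as called where this p was under 0.05. Spots well above background made up 77% and 72.6% of the day 7 arrays and 75.7% of each day 3 array. The pyramidal cell markers Wfs1, Fibcd1, Neurod6 and Rgs14 and the dentate granule cell marker C1ql2 were well above background on all 4 arrays. The dentate marker Prox1 was well above background on neither day 7 array and on 1 day 3 array, and Dsp, another dentate marker, on 1 day 7 array and on both day 3 arrays.

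Much of the transcriptome differed between the groups by small amounts, and the largest changes were falls. Of all genes tested, 42.4% were called, 5146 of them higher on day 7 (24.2% of genes tested) and 3888 lower (18.3%). The median change was 0.32 among the higher genes and -0.46 among the lower genes. At least 2-fold changes were seen in 191 higher and 459 lower genes, and at least 4-fold changes in 25 higher and 58 lower genes. Both day 7 arrays lay on one side of both day 3 arrays in 14944 genes (70.2%), among them every called gene named in this account. The size of the change had a median of 0.243 over all genes, against a median difference of 0.0949 between the day 7 arrays and 0.0764 between the day 3 arrays. The median signed change was 0.05, and 90% of genes lay between -0.83 and 0.62.

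The direction of small changes went with signal level and with the scaling of the arrays. Among the tenth of genes with the highest levels the median change was 0.17, with 1050 genes higher and 157 lower. The fourth decile from the dim end had -0.07, with 269 higher and 577 lower. In the dimmest decile 12.2% of genes were called and the median change was 0.01. Of all calls, 57.0% were higher, against 73.1% under median centring, where the median of all genes moved to 0.16, 63.1% with normexp background correction and 50.3% under cyclic loess, which removes differences that go with signal level. Median centring raised the median of every list by 0.11, which is not repeated at each list. No gene called under the main scaling was called in the opposite direction under these 3, whereas averaging all probes of a gene turned 79 calls round.

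A gene is represented by its brightest probe, and other probes of the same gene often did not move with it. Among called genes, 1464 other probes of 1333 genes were well above background on all 4 arrays, and 57.0% of them moved in the direction of the representing probe. Their median change in that direction was 0.065, against a median size of 0.32 for the representing probes. Small calls are therefore results of a probe more than of a gene. For genes that changed less than 2-fold the share was 56.5%, and for genes that changed at least 2-fold it was 21 of 24 other probes. Where a gene named below has such probes, their values are given, and a change is that of the brightest probe.

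**Figure D1:**
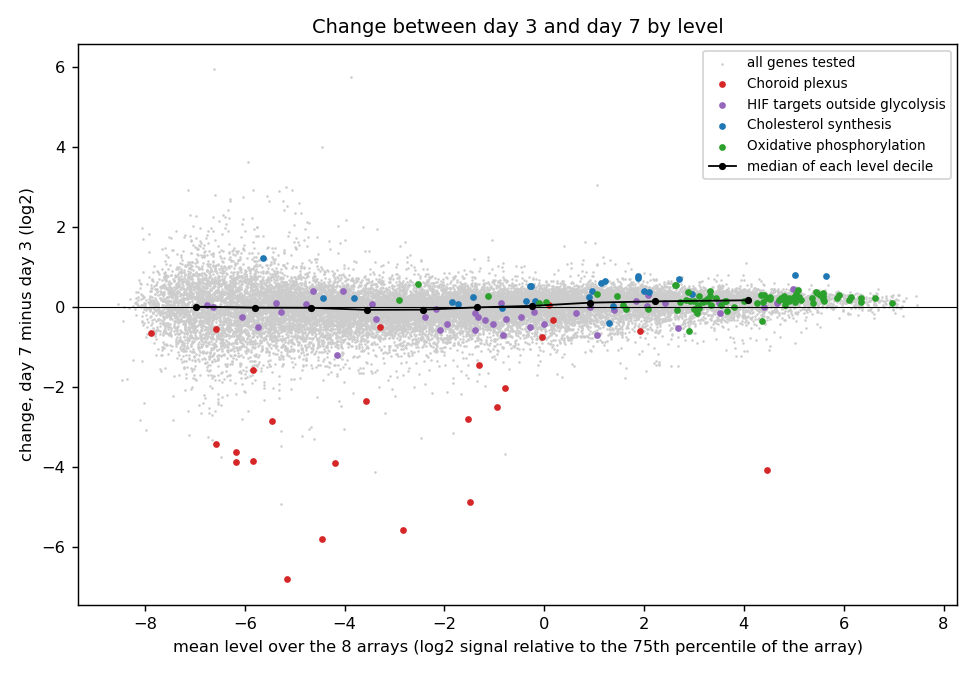
Each point is 1 of 21296 genes, with its mean level over the 8 arrays on the horizontal axis (log2 signal relative to the array's 75th percentile) and its change on the vertical axis (day 7 minus day 3, log2). Coloured points mark 4 gene lists, and the black line joins the medians of the level deciles, which run from 0.01 at the dim end to 0.17 at the bright end. Choroid plexus markers (red) lie lowest among the coloured points, and those not well above background on day 7 are plotted at measured differences that have only a bound.

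The largest median change among 57 gene lists was that of choroid plexus, the epithelium that secretes cerebrospinal fluid. Of its 24 tested markers, 21 were lower on day 7 and 0 were higher, and the median change was -2.65, against 0.05 over all genes. Ttr, which encodes the thyroid hormone carrier transthyretin, had log2 levels of 3.32 and 3.21 on day 7, against 7.39 and 7.28 on day 3, a change of -4.07 ± 0.07 (limma, adjusted p = 5.7e-05). Sostdc1, which encodes a secreted antagonist of bone morphogenetic proteins, had -3.62 and -3.67 on day 7, against 1.23 and 1.20 on day 3 (-4.86 ± 0.05, adjusted p = 1.09e-05). In both genes the arrays of a group lay close together and far from those of the other group. The potassium channel gene Kcnj13 changed by -5.58, the transcription factor gene Otx2 by -2.49, Tmem27 (now Cltrn), an amino acid transport gene, by -5.78, the metalloreductase gene Steap1 by -2.35 and the folate receptor gene Folr1, chosen after its value was seen, by -2.80. Kcnj13 and Tmem27 were well above background on 1 of 2 day 7 arrays. The 3 markers that were not called were Cab39l (0.05, and called higher at 0.16 under median centring), Prlr (-0.65, not well above background on any of the 4 arrays, and called lower at -1.26 under quantile normalization and -0.91 without day 7 replicate 2) and Slc13a4 (-0.54, well above background on 1 of the 4).

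Glycam1, a mucin-like glycoprotein gene, had the largest fall of any gene with a symbol. It had log2 levels of -8.55 and -7.99 on day 7, where both spots were not well above background, against -1.54 and -1.39 on day 3. Its fall was at least 55.9-fold (limma, adjusted p = 0.000141). Its value rests on 1 probe, at chr7:142455770-142455829 of rat genome build rn4 on the minus strand, printed here as the oligonucleotide behind this value, with no base marked.
Glycam1: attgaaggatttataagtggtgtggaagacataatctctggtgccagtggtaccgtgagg
Other choroid plexus markers whose day 7 spots were both not well above background were Mfrp, at least 9.07-fold lower, Cldn2, a claudin of leaky epithelia, at least 8.53-fold lower, Lect1 (now Cnmd), at least 6.37-fold lower, and Kl, which encodes the anti-ageing factor klotho, at least 5.03-fold lower. In all, 15 of the 58 genes that fell at least 4-fold are members of this list, as are 10 of the 15 largest falls with a symbol. The other 5 of these falls were Tmem72 (at least 20.3-fold lower), Cyp4f5, a cytochrome P450 gene (-4.11 ± 0.21), the adiponectin gene Adipoq (at least 6.65-fold lower), the secretory phospholipase gene Pla2g5 (at least 8.66-fold lower) and the collagen gene Col8a1 (at least 9.81-fold lower). With normexp background correction the list's median was -0.92 with 21 members lower, and among markers well above background on all 8 arrays 11 were lower, with a median of -1.73. With the 6 markers that have only a bound set at that bound, the median was -2.42.

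The choroid plexus markers did not follow the length of exposure. Their summed level, in units of the array's 75th percentile, reached 132 and 143 on the normoxia arrays. Day 1 had 6.95 and 7.06, day 3 had 186 and 174, and day 7 had 17.8 and 17.1. Normoxia and day 3 were thus high, and day 1 and day 7 low. The same pairs of groups shared slide columns: columns 1 and 2 held the normoxia and day 3 arrays, whereas columns 3 and 4 held those of days 1 and 7. Each group lay at 1 place on the slide, so place and group cannot be told apart. In bulk tissue, fewer cells of a type and less RNA per cell cannot be told apart either.

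**Figure D2:**
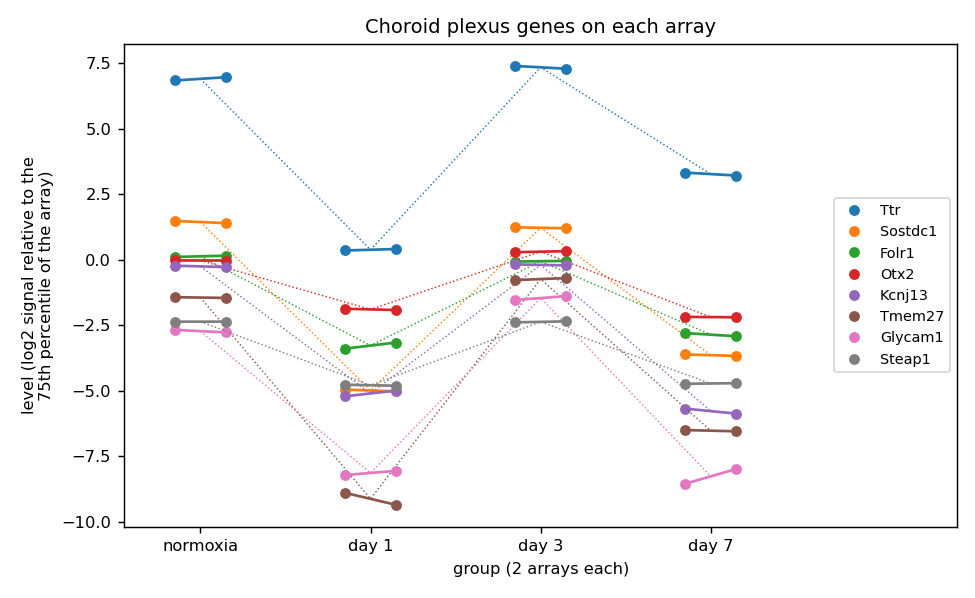
Level (log2 signal relative to the array's 75th percentile) of 8 choroid plexus markers on each array, with the 2 arrays of a group joined by a solid line and group means by dotted lines, in the order normoxia, day 1, day 3, day 7. All 8 markers were lower on both day 7 arrays than on both day 3 arrays.

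Markers of other tissues around the ventricles and the brain surface were more often lower than higher on day 7. Of 19 ependyma and cilia genes, 11 were lower and 3 higher, with a median of -0.28 (-0.16 under quantile normalization). Foxj1, the transcription factor of motile ciliated cells, had 0.12 and 0.07 on day 7, against 0.92 and 0.92 on day 3 (-0.83 ± 0.04, limma, adjusted p = 0.000363), and the cilia genes Ccdc40, Dnai2, Tekt1 and Rsph1 changed by -1.06, -1.09, -0.70 and -0.69. Of 23 leptomeningeal and fibroblast markers, 11 were lower and 5 higher, with a median of -0.13 (-0.23 without day 7 replicate 1 or day 3 replicate 1, and -0.02 under median centring). Igf2, the growth factor gene of meninges and choroid plexus, had 1.47 and 1.41 on day 7, against 2.89 and 2.89 on day 3 (-1.45 ± 0.04, adjusted p = 0.000141). Fmod, which encodes the collagen-binding protein fibromodulin, changed by -1.45, and Igfbp2, which binds insulin-like growth factors, by -1.59, with -2.05 on its other probe. The collagen genes Col3a1 and Col1a2 changed by -0.68 and -0.48. The higher count in this list was 1 without day 3 replicate 1, 2 without day 7 replicate 2 and 3 without any 1 of the other 6 arrays. The summed level of the leptomeningeal markers reached 52.2 and 52.1 on the normoxia arrays. Day 1 had 25.8 and 26.2, day 3 had 37.1 and 37.0, and day 7 had 26.4 and 26.3, lower on days 1 and 7 as for choroid plexus, and the part of carried-over tissue in these falls was not tested.

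Of 18 neocortex markers, 10 were lower and 3 higher (1 higher without day 7 replicate 2), with a median of -0.26 (-0.07 for the mean of a gene's probes). Etv1, a transcription factor of deep cortical layers, changed by -1.58 ± 0.07 (limma, adjusted p = 0.00035), Rasgrf2 by -0.77 and the heparan sulfatase gene Sulf1 by -1.43, which was not called in the authors' values (-0.60). The largest fall in the list of hippocampal pyramidal cell genes had the same value as that of Etv1, so this fall may not stand for neocortex alone. Ctgf (now Ccn2), a marker of the deepest layer, was higher (0.28). Their summed level was 14.7 and 14.5 on day 7 and 15.7 and 16.3 on day 3. Striatal markers went both ways, with 6 of 19 higher and 5 lower, and with 3 lower with probe GC corrected and without day 1 replicate 1 or 2, day 3 replicate 2 or day 7 replicate 2. In the main fit 31.6% were higher and 26.3% lower, against 24.2% and 18.3% of all genes tested. Ppp1r1b, which encodes the dopamine signalling protein DARPP-32, changed by -0.65, with -0.68 on its other probe, and Gng7 by -0.69. Both are lower members. The summed level of the striatal list was 27.0 and 26.7 on day 7, against 24.0 and 24.0 on day 3. Bright genes dominate such sums, and the brightest decile of all genes had a median change of 0.17. The median change of the striatal list was -0.04. Thalamus markers had 8 of 18 higher and 4 lower, with Prkcd at 0.64 and Tcf7l2 at 0.77 (0.15 on its other probe). Both of these are higher members, and the largest fall in the thalamus list was -0.77. Without day 7 replicate 1 the thalamus count was 5 higher, and without day 3 replicate 1 and replicate 2 it was 2 and 1 lower.

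HIF target genes, which hypoxia-inducible factors switch on, were lower on day 7 more often than higher. Of 42 targets outside glycolysis, 17 were lower and 4 higher (2 higher without day 7 replicate 1), with a median of -0.13 (-0.07 with normexp). Slc16a3, the transporter that exports lactate, had -0.96 and -0.90 on day 7, against -0.24 and -0.26 on day 3 (-0.68 ± 0.04, limma, adjusted p = 0.000583). Ndrg1, a stress response gene, had 0.42 and 0.39 on day 7, against 1.12 and 1.1 on day 3 (-0.70 ± 0.05, adjusted p = 0.000771). The groups did not overlap in either gene, and Ndrg1 on day 7 also lay below its normoxia levels of 1.22 and 1.16, whereas Slc16a3 stayed above its normoxia levels of -2.30 and -2.29. Among the falls were Loxl2, a collagen cross-linking oxidase, at -1.19 ± 0.09 (adjusted p = 0.000931) and P4ha1, a subunit of a collagen prolyl hydroxylase, at -0.51 ± 0.04. Ddit4, an inhibitor of the growth regulator mTORC1, changed by -0.52, and by -0.83 on its other probe.

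Ankrd37, a HIF target with an ankyrin repeat protein product, had 0.04 and 0.02 on day 7, against 0.46 and 0.43 on day 3 (-0.42 ± 0.03, limma, adjusted p = 0.000984). The vasodilator peptide gene Adm was lower by a smaller amount (-0.24 ± 0.04, adjusted p = 0.00615, and 0.0506 with the 4 arrays alone). The 4 targets that were higher, chosen after their values were seen, were the mitophagy receptor gene Bnip3l (0.46), Narf (0.30, -0.35 on its other probe, and not called for their mean), the adenylate kinase gene Ak4 (0.40) and Rora (0.40), a nuclear receptor gene. The call of Ak4 was lost without any 1 array other than day 3 replicate 1 (adjusted p = 0.0584 to 0.121, limma), and that of Rora without day 3 replicate 1 (0.0853) or day 7 replicate 1 (0.0836). With median centring 10 targets were higher and 14 lower, with a median of -0.02. Vegfa, the main growth factor of vessels, did not pass the test: it had 4.0 and 4.14 on day 7 and 4.14 and 4.26 on day 3 (-0.14 ± 0.07, adjusted p = 0.183), while its other 3 probes gave -0.95 to 0.15. It was called lower under quantile normalization (-0.25), cyclic loess (-0.27), the mean of its probes (-0.29) and removal of the GC trend (-0.27), with adjusted p of 0.0143 to 0.0424 (limma). Pdk1, a kinase that keeps pyruvate out of mitochondria, and Hif3a, a HIF subunit, did not pass either (-0.05 ± 0.04 and 0.06 ± 0.41).

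The core of the hypoxia response element, ACGTG, was searched on both strands in RefSeq promoter windows of build GRCr8, from 250 bases before to 50 after each gene's start. It was found in 21 of 35 matched HIF targets, in 8 of 13 that were lower, in 0 of 3 that were higher and in 13 of 19 that were not called, against 19.7% of all 27457 promoters. The genes are listed because HIFs switch them on, so the share in the list does not bear on day 7. A match is a description of the letters and not of binding. The window of Ankrd37, chr16:53001257-53001556 on the plus strand, holds 4 matches and is shown because no other called target holds more; capitals mark the matches, and 2 of them on opposite strands overlap.
Ankrd37: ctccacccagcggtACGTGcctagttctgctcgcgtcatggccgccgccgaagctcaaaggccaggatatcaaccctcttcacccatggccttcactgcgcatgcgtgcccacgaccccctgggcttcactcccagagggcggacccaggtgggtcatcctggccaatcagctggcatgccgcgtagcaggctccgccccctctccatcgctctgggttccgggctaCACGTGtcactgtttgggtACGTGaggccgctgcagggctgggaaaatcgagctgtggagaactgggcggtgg

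Glycolysis genes had no common direction. Of 19, 5 were higher and 3 lower (3 higher without day 3 replicate 2), with a median of 0.06 that turned to -0.12 under cyclic loess and -0.11 under quantile normalization. In the cyclic loess fit 1 was higher and 7 were lower, and under median centring 9 were higher. Slc2a1, the glucose transporter of the blood-brain barrier and glia, had 3.93 and 3.92 on day 7, against 3.51 and 3.52 on day 3 (0.41 ± 0.04, limma, adjusted p = 0.00193). Both day 7 arrays lay above both day 3 arrays and close to the day 1 levels of 3.86 and 3.86. The aldolase gene Aldoa changed by -0.40, the phosphofructokinase gene Pfkl by -0.45 (-0.49 on its other probe) and the pyruvate kinase gene Pkm by -0.47 (-0.53 on its other probe).

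Among growth factors of vessels, Angpt2, which encodes an antagonist of the Tie2 receptor that loosens vessel walls, was lower on day 7. It had log2 levels of -2.21 and -2.30 on day 7, against -0.55 and -0.61 on day 3 (-1.67 ± 0.05, limma, adjusted p = 0.000141). Its normoxia levels were -3.81 and -3.82 and its day 1 levels 1.41 and 1.39, so the day 7 arrays lay between day 3 and normoxia. Kdr, the main VEGF receptor, had 3.03 and 3.03 on day 7, against 3.66 and 3.70 on day 3 (-0.65 ± 0.04, adjusted p = 0.000637), and its co-receptor Nrp1 changed by -0.87. Esm1, a proteoglycan of growing vessel tips, was higher by 1.21 ± 0.07 (adjusted p = 0.00048), as was Angptl4 by 0.56. Of 19 genes of VEGF and angiopoietin signalling, 6 were lower and 3 higher, with a median of -0.08 (0.03 under median centring, and 3 lower with normexp).

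**Figure D3:**
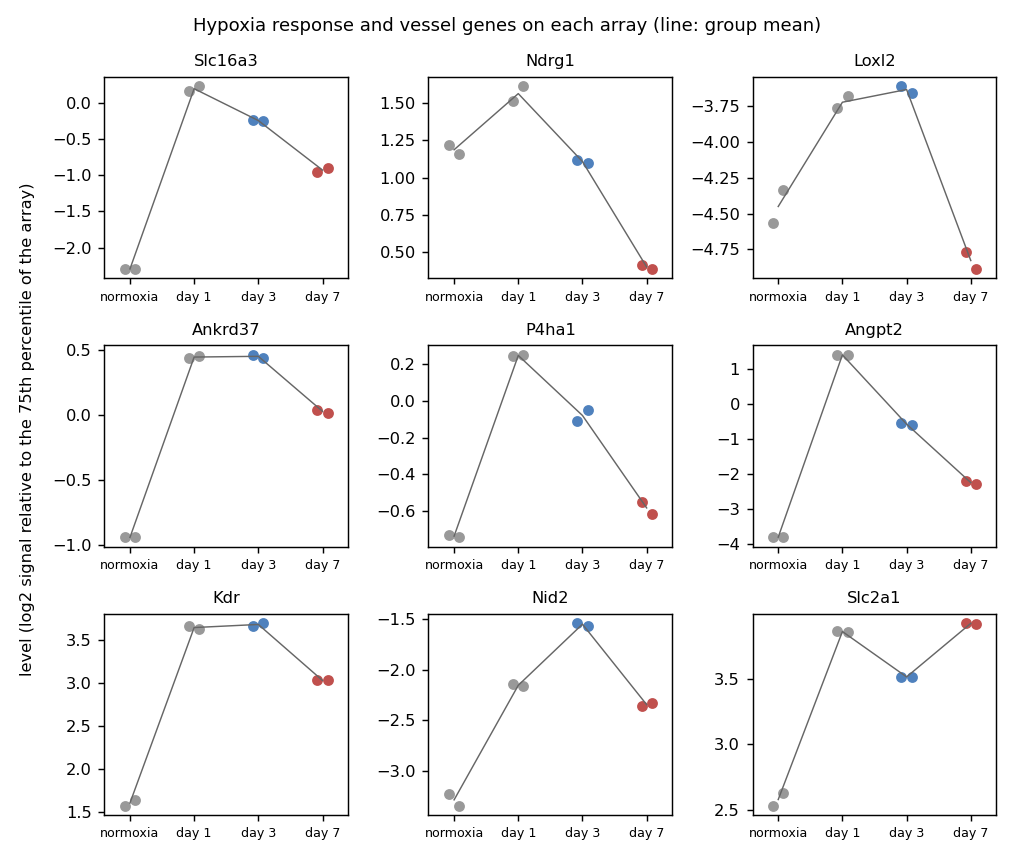
Level (log2 signal relative to the array's 75th percentile) of 9 hypoxia response and vessel genes on each array in normoxia, day 1, day 3 (blue) and day 7 (red); the line joins group means and each panel has its own scale. In 8 panels the day 7 arrays lie below the day 3 arrays, and Slc2a1 is the exception.

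Vegfb, another VEGF family gene, had the largest rise of any gene with a symbol. It had log2 levels of -2.61 and -2.63 on day 7, against -8.32 and -8.42 on day 3, where both spots were not well above background. Its rise was at least 25.9-fold (limma, adjusted p = 1.09e-05; probe at chromosome 1, 209657830 to 209657889 in rn4). Its levels were -2.38 and -2.45 in normoxia and -2.12 and -2.05 on day 1. Day 3 was therefore the group that stood apart, on a single probe.

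Structural genes of vessels were mostly lower. Of 12 basement membrane genes, 7 were lower and 2 higher (1 higher without day 3 replicate 2 or day 7 replicate 2), with a median of -0.38. Nid2, which links laminin to collagen, had -2.36 and -2.33 on day 7, against -1.54 and -1.57 on day 3 (-0.79 ± 0.05, limma, adjusted p = 0.000637). Lamb2 changed by -0.90, Col4a2 by -0.75, Nid1 by -0.58, Lama5 by -0.62 and Lama2 by -0.50. Of 22 matrix proteases and inhibitors, 8 were lower and 3 higher, with the proteases Adamts1 at -0.87 and Adamts9 at -0.51, the inhibitor Timp3 at -0.87 and Timp4 at 0.34 (0.14 on its other probe). Mmp9, a gelatinase, was well above background on 1 of 2 day 7 arrays (-1.35 ± 0.07, adjusted p = 0.000508) and was not called in the authors' values.

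Endothelial markers went both ways, with 9 of 25 lower and 4 higher, and 5 lower without either day 3 array. Their median of -0.02 turned to 0.09 under median centring and 0.02 with normexp, where 5 were lower. The 2 transporters of the blood-brain barrier Abcg2, an efflux pump, and Slco1a2 (now Slco1a4), a carrier of organic anions, were higher, by 0.68 ± 0.04 and 0.66 ± 0.05 (limma, adjusted p = 0.000646 and 0.00116). Slc7a5, which carries large amino acids across that barrier, was lower (-1.13 ± 0.13, adjusted p = 0.00248), as were the junction gene Esam (-0.60) and the TGF-beta co-receptor gene Eng (-0.66). Of 14 mural cell markers, 5 were higher and 3 lower (2 or 3 higher without any 1 array other than day 7 replicate 2), with a median of 0.04. In the main fit 35.7% of the mural cell markers were higher and 21.4% lower, against 24.2% and 18.3% of all genes tested. The smooth muscle myosin gene Myh11 changed by -1.18 (-1.55 on its other probe), Tagln by -0.61 and the pericyte potassium channel gene Kcnj8 by 0.58.

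**Figure D4:**
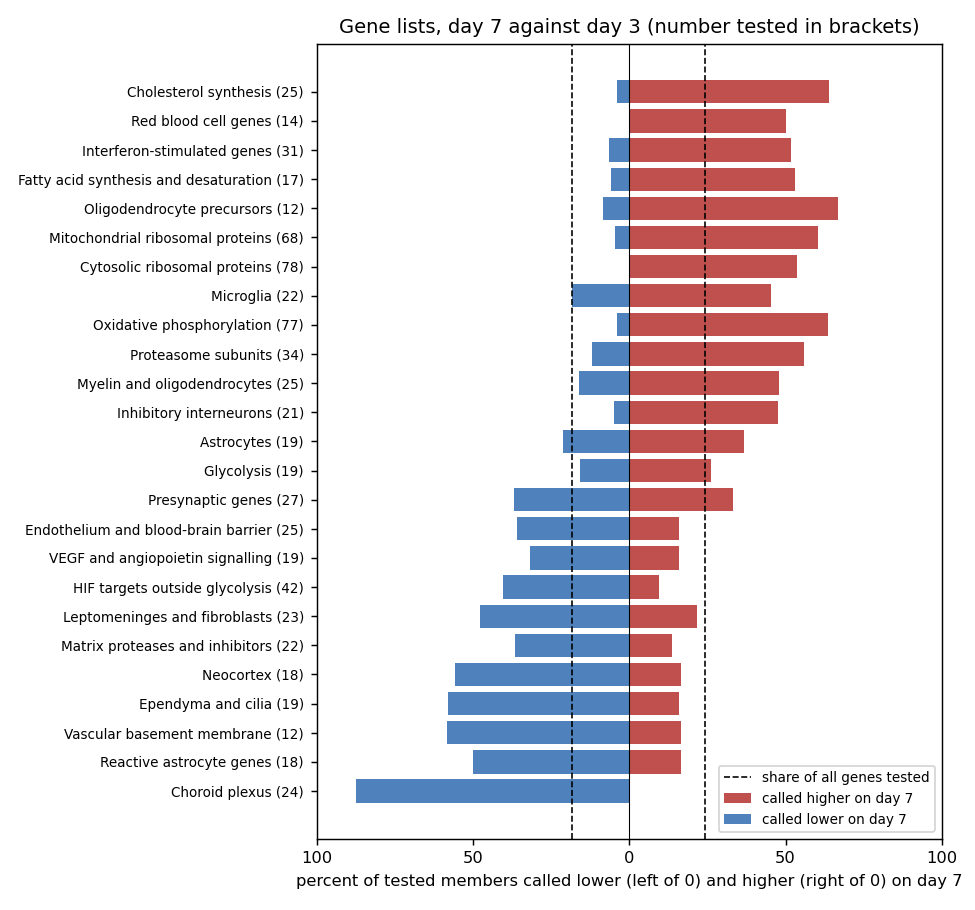
Percent of the tested members of 25 gene lists called lower (blue, left of 0) and higher (red, right of 0) on day 7 against day 3, ordered by median change, with the number tested in brackets and dashed lines at the shares of all genes, 18.3% lower and 24.2% higher. Choroid plexus stands at the bottom and cholesterol synthesis at the top. Under cyclic loess, oxidative phosphorylation had 15 higher and 8 lower members, and cytosolic ribosomal proteins 6 higher and 4 lower; the medians of the glycolysis, presynaptic and myelin lists turned negative under cyclic loess and quantile normalization, and those of the VEGF and endothelium lists positive under median centring.

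Cholesterol synthesis genes were mostly higher on day 7 than on day 3. Of 25, 16 were higher and 1 was lower, with a median of 0.38. Set against normoxia, the list's median change was -0.70 for day 1, -0.58 for day 3 but only -0.05 for day 7. By its median, the list thus lay near normoxia at day 7, after lower values in the earlier exposure groups. Its summed level, which bright genes dominate, was 179 and 177 for day 7, above the 154 and 156 of normoxia. The early enzyme gene Hmgcs1 (HMG-CoA synthase) had 6.19 and 6.21 on day 7, against 5.45 and 5.38 on day 3 (0.79 ± 0.04, limma, adjusted p = 0.000529). Idi1, the isomerase that makes the second isoprenoid unit, had 2.45 and 2.51 on day 7, against 1.72 and 1.77 on day 3 (0.74 ± 0.04). Sqle, which oxidises squalene with molecular oxygen, had 3.24 and 3.25 on day 7, against 2.54 and 2.54 on day 3 (0.71 ± 0.04, adjusted p = 0.000492). In each of these the day 7 arrays lay above the day 3 arrays by many times the difference between arrays of a group. Later in the pathway, the oxygen-using demethylation enzymes Cyp51 and Msmo1 were higher by 0.65 ± 0.04 and 0.81 ± 0.04 (adjusted p = 0.000485 and 0.000449), and the sterol reductase gene Tm7sf2 by 0.53 ± 0.04.

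The 1 member that was lower was Pmvk, phosphomevalonate kinase (-0.38 ± 0.04, limma, adjusted p = 0.00253), chosen after its value was seen. The count of higher members was 17 under cyclic loess, 17 with normexp and 16 with the 4 arrays alone. A sterol regulatory element of the form TCACNCCAC was found in 0 of 17 matched promoter windows of the list, against 1.13% of all promoters, which says only that these letters are not in those windows.

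Fatty acid synthesis genes moved the same way in 9 of 17 cases, with 1 lower (2 without day 7 replicate 2) and a median of 0.25. That median was 0.04 for the mean of a gene's probes, 0.11 under cyclic loess, 0.11 under quantile normalization, 0.38 in the authors' values, 0.39 with normexp and 0.40 without day 7 replicate 1. Scd1 (now Scd), the oxygen-using desaturase, had 0.35 and 0.39 on day 7, against -0.71 and -0.63 on day 3 (1.04 ± 0.04, limma, adjusted p = 0.000336). Acly, which supplies cytosolic acetyl-CoA, was higher by 0.59, Thrsp, a lipogenic gene, by 0.64, the malic enzyme gene Me1 by 0.42 (0.27 on its other probe) and Srebf1, the transcription factor of this pathway, by 0.46. Elovl2, an elongase of polyunsaturated fatty acids, changed by 0.70 (0.24 on its other probe).

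Genes of respiration and of the cytosolic ribosome had small positive changes that rested on the scaling of the arrays. Those of the mitochondrial ribosome did so less, with medians from 0.13 to 0.32 over the alternative scalings. Of 77 oxidative phosphorylation genes, 49 were higher and 3 lower, with a median of 0.19; under cyclic loess the median was 0.03, with 15 higher and 8 lower. Quantile normalization also gave 15 higher, normexp 29, and the fit without day 3 replicate 2 gave 27. Ndufa10, a complex I subunit, had 3.18 and 3.22 on day 7, against 2.66 and 2.61 on day 3 (0.57 ± 0.04, limma, adjusted p = 0.00103). Cox6a2, the muscle-type subunit of cytochrome oxidase, was higher by 0.59, and the ATP synthase genes Atp5d (now Atp5f1d) and Atp5f1 (now Atp5pb) by 0.40 and 0.36. Against this direction, Atp5b (now Atp5f1b), which encodes the catalytic beta subunit of ATP synthase, was lower (-0.60 ± 0.04, adjusted p = 0.000691), as was the complex I gene Ndufv2 (-0.34).

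Of 68 mitochondrial ribosomal protein genes, 41 were higher and 3 lower, with a median of 0.21 (0.13 under quantile normalization) and 29 higher under cyclic loess. Mrpl36 changed by 0.70, Mrpl45 by 0.60 and Mrps18b by -0.80. Of 78 cytosolic ribosomal protein genes, 42 were higher and 0 lower, with a median of 0.19. Under cyclic loess 6 were higher and 4 lower, with a median of 0.01, and normexp gave 23 higher. The higher count was 18 and 17 without day 3 replicate 1 and 2, and 27 and 26 without day 7 replicate 1 and 2. Rpl15 was higher by 0.50 ± 0.05 (limma, adjusted p = 0.0015), and was called under every alternative scaling. Of 34 proteasome genes, 19 were higher and 4 lower, with 8 higher under cyclic loess and 12 higher without either day 3 array. The regulatory subunit genes Psmd7 and Psmd3 were lower (-0.88 and -0.64), and Psmc6, an ATPase subunit, was higher by 0.48.

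Interferon-stimulated genes, which antiviral cytokines switch on, were mostly higher on day 7. Of 31, 16 were higher and 2 lower, with a median of 0.27. Mx1, a dynamin-like antiviral GTPase, had 1.08 and 1.06 on day 7, against -0.03 and -0.03 on day 3 (1.1 ± 0.04, limma, adjusted p = 0.000217). Rsad2, which encodes viperin, had 1.53 and 1.67 on day 7, against 0.68 and 0.64 on day 3 (0.94 ± 0.06, adjusted p = 0.000777). Irf7, the transcription factor that amplifies the response, had -0.21 and -0.33 on day 7, against -1.02 and -1.14 on day 3 (0.81 ± 0.06, adjusted p = 0.000923). The 2 day 7 arrays were the higher ones in all of these, with no overlap. Rtp4 was higher by 0.87, the ubiquitin-like gene Isg15 by 0.60, and the Isg15 protease gene Usp18 by 0.82, with -0.12 on its other probe and no call for their mean (0.35, adjusted p = 0.183, limma).

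The 2 members that were lower, chosen after their values were seen, were the peptide transporter gene Tap1 (-0.72 ± 0.09, limma, adjusted p = 0.00327; -0.23 and 0.0569 with normexp) and Mx2 (-0.26 ± 0.06, adjusted p = 0.0175; 0.0797 without day 3 replicate 2, and 0.0702 to 0.0861 under median centring, with normexp and with the 4 arrays alone). Without day 3 replicate 2 the lower count was 1. The higher count was 14 under cyclic loess, 16 with normexp and 13 with the 4 arrays alone. Levels on the other arrays differed by gene: Mx1 had 0.89 and 0.91 in normoxia and 0.15 and 0.20 on day 1, and Rsad2 had -1.50 and -1.53 in normoxia and 0.31 and 0.43 on day 1.

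The interferon-stimulated response element, in the form of 2 copies of GAAA with any 2 bases between them, on either strand, was found in the RefSeq promoter windows of 16 of 21 matched genes of the list, against 3.77% of all 27457 promoters. Of the 11 matched genes that were higher, 10 held it, and Mx1 was the exception. It was also found in the 1 that was lower, Tap1, and in 5 of the 9 that were not called. The genes are listed because interferon switches them on, so the share in the list does not bear on day 7. The windows of Rsad2 (chr6:48788071-48788370, minus strand) and Irf7 (chr1:205799974-205800273, minus strand) of build GRCr8 are shown because both genes are described above, with the match in capitals, which lies on the opposite strand in both.
Rsad2: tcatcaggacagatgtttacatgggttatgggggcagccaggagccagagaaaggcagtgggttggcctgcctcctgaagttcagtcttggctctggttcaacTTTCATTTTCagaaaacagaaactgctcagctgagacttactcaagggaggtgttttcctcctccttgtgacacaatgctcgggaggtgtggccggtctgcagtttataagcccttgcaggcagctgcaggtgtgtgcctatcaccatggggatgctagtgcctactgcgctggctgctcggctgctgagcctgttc
Irf7: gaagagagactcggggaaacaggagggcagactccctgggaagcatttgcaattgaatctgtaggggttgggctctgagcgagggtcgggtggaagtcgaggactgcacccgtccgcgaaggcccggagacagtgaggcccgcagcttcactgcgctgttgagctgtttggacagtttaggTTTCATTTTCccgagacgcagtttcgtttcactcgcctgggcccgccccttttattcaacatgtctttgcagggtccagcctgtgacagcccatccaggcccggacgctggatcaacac

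**Figure D5:**
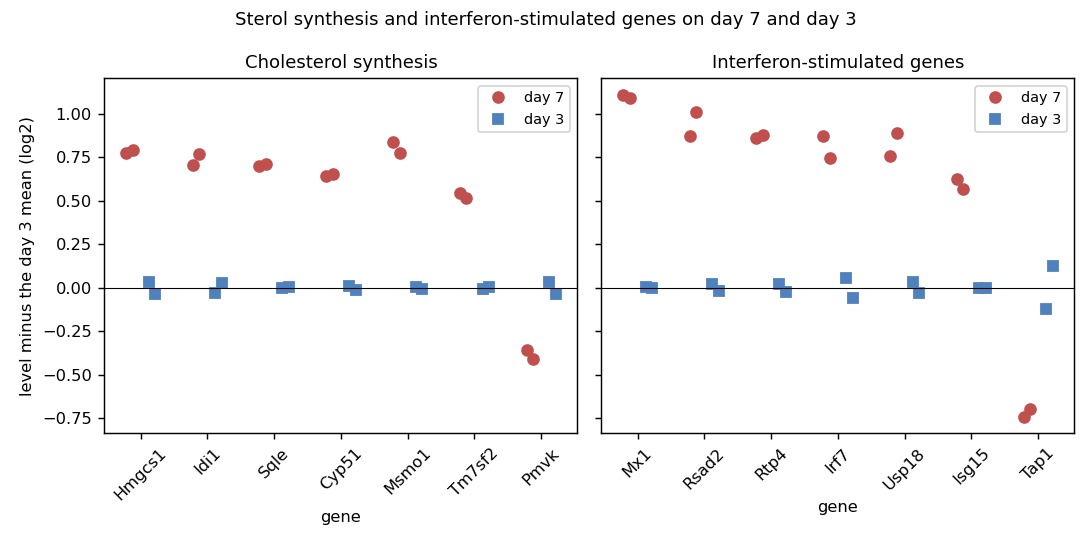
Level of each array minus the day 3 mean (log2) for 7 cholesterol synthesis genes (left panel) and 7 interferon-stimulated genes (right panel), with day 7 arrays as red circles to the left of day 3 arrays as blue squares. In each panel 6 genes lie above 0 on both day 7 arrays and 1 lies below, Pmvk at -0.38 and Tap1 at -0.72.

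Microglial markers were more often higher than lower on day 7. Of 22, 10 were higher (45.5%) and 4 lower (18.2%), with a median of 0.19. Of all genes tested, 24.2% were higher and 18.3% lower, so the lower share was that of all genes. Among the 4 lower members were P2ry12 and Cx3cr1, the receptors by which resting microglia sense nucleotides and the chemokine fractalkine. P2ry12 had -0.15 and -0.15 on day 7, against 0.38 and 0.33 on day 3 (-0.51 ± 0.04, limma, adjusted p = 0.000828), and Cx3cr1, chosen after its value was seen, changed by -0.68 ± 0.12. The lysosomal gene Laptm5 (0.60) and the receptor complex genes Trem2 (0.25) and Tyrobp (0.30) were higher. Aif1, a widely used microglial marker, did not pass the test (0.27 ± 0.09, and 0.45 on its other probe), and was called higher under median centring, for the mean of its probes (0.36) and in 4 other alternatives. The summed level of the list, which bright genes dominate, was 56.4 and 59.3 on day 7 and 46.9 and 46.8 on day 3.

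Other immune genes were mixed. The complement genes C3, Cfd, C5ar1 and C5 were higher (0.48, 0.50, 0.77 and 0.65), and C1s was lower (-0.41). In all, 6 of 20 complement genes were higher and 5 lower, which is 30% and 25%. These shares lie near the 24.2% higher and 18.3% lower of all genes tested, beside which the counts that follow also stand. Of 24 chemokine genes, 8 were higher and 2 lower (0 to 2 lower with any 1 array left out), with Cxcl12, a chemokine of vessels, at 0.51 (0.14 on its other probe) and Ccl17 at 0.99. Among 23 cytokine and NF-kB genes, 6 were higher and 7 lower (3 lower with normexp), including the adhesion molecule gene Vcam1 at 0.68 and the transcription factor gene Nfkb1 at -0.47. Cd74, the invariant chain of MHC class II, had -3.32 and -3.54 on day 7, against -2.93 and -2.90 on day 3 (-0.52 ± 0.08, limma, adjusted p = 0.00553), and RT1-DMb, which loads peptides onto these molecules, changed by 0.30. Neutrophil granule genes had 5 of 13 higher and 2 lower, with the defensin genes Defa (now Defa5) at 1.68 and RatNP-3b at 2.0 (not called with the 4 arrays alone). The gelatinase gene Mmp9 and the lipocalin gene Lcn2 (-1.44, well above background on 1 of 2 day 7 arrays) went the other way. Of 17 lymphocyte genes, 7 were well above background on both day 7 arrays, as were 14 of the 24 chemokine genes and 7 of the 13 neutrophil genes.

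Red blood cell genes were higher in 7 of 14 cases and lower in 0, with a median of 0.31. The beta-globin gene Hbb-b1 had 7.46 and 7.52 on day 7, against 7.17 and 7.10 on day 3 (0.35 ± 0.05, limma, adjusted p = 0.00474, and 0.41 on its other probe). Alas2, the first enzyme of haem synthesis in red cell precursors, was higher by 0.42 ± 0.05, Hemgn by 0.58 and the alpha-globin gene LOC287167 (now Hba-a3) by 0.76. Their summed level reached 164 and 180.1 on the normoxia arrays. Day 1 had 299.7 and 290.5, day 3 had 472 and 445, and day 7 had 564 and 552. Both day 7 arrays had the highest sums, and the part of blood in other changes was not tested.

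Reactive astrocyte genes, which astrocytes raise after injury, were lower in 9 of 18 cases and higher in 3, with a median of -0.39 (-0.18 with normexp). Vim, an intermediate filament gene, had 0.09 and 0.03 on day 7, against 0.81 and 0.74 on day 3 (-0.72 ± 0.04, limma, adjusted p = 0.000569). Aspg changed by -1.07 and the protease inhibitor gene Timp1 by -0.32. Gfap, the astrocyte filament gene, had -2.13 and -2.05 on day 7, against -0.99 and -1.01 on day 3 (-1.09 ± 0.05, adjusted p = 0.000365), but its other probe gave 0.14. The acute phase gene Serpina3n was well above background on 1 of 2 day 7 arrays (-1.42 ± 0.20). Of the general astrocyte markers, 7 of 19 were higher and 4 lower, with a median of 0.07 and 4 higher under cyclic loess. Mlc1, a protein of astrocyte endfeet, and Glul, glutamine synthetase, changed by -0.86 and -0.90, whereas the gap junction gene Gja1 changed by 0.30 and the water channel gene Aqp4 by 0.71, with -0.20 to 0.17 on its other 2 probes.

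Oligodendrocyte precursor genes were higher in 8 of 12 cases and lower in 1 (5 higher without day 3 replicate 2), with a median of 0.22 (0.10 under cyclic loess and 0.10 under quantile normalization). The sialidase gene Neu4 had -2.49 and -2.43 on day 7, against -3.28 and -3.28 on day 3 (0.82 ± 0.04, limma, adjusted p = 0.00045), and the matrix proteoglycan genes Vcan and Cspg5 changed by 0.82 (0.69 on its other probe) and 0.72. Of 25 myelin genes, 12 were higher and 4 lower, with a median of 0.12 that turned to -0.02 under cyclic loess, where 6 were higher. Without day 3 replicate 1 the myelin count was 6 higher, and without day 3 replicate 2 it was 5 higher and 2 lower. Enpp6, a marker of newly formed oligodendrocytes, was higher by 0.57, Gal3st1, a sulfatide synthesis gene, by 0.45, and Tspan2 by 0.46. Cldn11, a tight junction gene of myelin, was lower (-0.92 ± 0.04, adjusted p = 0.000328), as was Enpp2, which choroid plexus also expresses (-0.59). Mbp, myelin basic protein, did not pass the test (0.03 ± 0.14, and 0.10 on its other probe).

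Presynaptic genes went both ways, with 10 of 27 lower and 9 higher, and a median of 0.01 that turned to -0.04 under cyclic loess. The synaptic vesicle gene Syp had 2.33 and 2.34 on day 7, against 2.98 and 3.01 on day 3 (-0.66 ± 0.03, limma, adjusted p = 0.000447). Syn1, which tethers vesicles, had -1.90 and -1.92 on day 7, against -1.17 and -1.16 on day 3 (-0.74 ± 0.05, adjusted p = 0.000642). Vamp2 and Snap25, which form the fusion complex, changed by -0.70 and -0.55 (-1.16 on the other probe of Snap25), Rab3a by -0.73 and Dnm1, the dynamin of vesicle retrieval, by -0.81. These 6 were named because they had the smallest p in the list, and all were lower, so they do not stand for its 9 higher members. The summed level of the presynaptic list, which bright genes dominate, was 178 and 178 on day 7, against 166 and 166 on day 3. Genes of inhibitory interneurons were higher in 10 of 21 cases, with the cannabinoid receptor gene Cnr1 at 0.54 (0.16 on its other probe), Calb2 at 0.57, the GABA vesicle transporter gene Slc32a1 at 0.39 and Gad1, the GABA synthesis gene, at 0.29 (1.02 on its other probe), while 1 gene, Reln, named because it was the exception, was lower (-0.47; 2 genes were lower without either day 3 array).

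Markers of the hippocampal cell layers did not move as one. Of 22 dentate and neurogenesis genes, 6 were higher and 7 lower (27.3% and 31.8%, against 24.2% and 18.3% of all genes tested). Dcx, a marker of newborn neurons, had 1.44 and 1.47 on day 7, against 0.89 and 0.81 on day 3 (0.60 ± 0.05, limma, adjusted p = 0.00124, and 0.61 on its other probe), and Tubb3, the neuronal tubulin, changed by 0.68. The granule cell genes Calb1, C1ql2 and Neurod2 were lower (-0.51, -0.49 and -0.91). Of 16 pyramidal cell genes, 8 were lower and 6 higher (2 higher without day 3 replicate 1, day 3 replicate 2 or day 7 replicate 2, and 5 lower under median centring), with Wfs1, a marker of field CA1, at -1.04 ± 0.06 (adjusted p = 0.000583) and the kainate receptor gene Grik4 of field CA3 at -0.46. Wfs1 and Grik4 are both lower members. Among the pyramidal cell genes the largest rise was 0.34 and the largest fall -1.58, the value given above for Etv1. The summed level of that list, which bright genes dominate, was 155 and 156 on day 7, against 134 and 132 on day 3. Its median change was -0.04. Bdnf, the activity-dependent neurotrophin, had -1.99 and -2.05 on day 7, against -1.56 and -1.49 on day 3 (-0.49 ± 0.04, limma, adjusted p = 0.0013), and its receptor gene Ntrk2 changed by 0.67, with -0.16 to 0.17 on its other 3 probes. Of 30 immediate early genes, which neuronal activity switches on, 9 were higher and 7 lower. These are 30% and 23.3%, near the 24.2% and 18.3% of all genes tested. Their median was -0.05, and -0.09 without day 3 replicate 2. Arc changed by -0.49, Jun by -0.54 and Jund by 0.56, and Fos did not pass the test (-0.02 ± 0.06).

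Beyond the lists, the 15 largest rises with a symbol were led by Vegfb and Seli. Seli (now Selenoi), which encodes an enzyme of phosphatidylethanolamine synthesis, had 2.01 and 2.15 on day 7, against -0.95 and -1.0 on day 3 (3.06 ± 0.06, limma, adjusted p = 6.09e-05; chromosome 6, 26058655 to 26058714 in rn4). Its levels were 1.36 and 1.36 in normoxia and 1.79 and 1.73 on day 1, so day 3 was again the group that stood apart, on 1 probe. Cdkl3, a kinase gene, changed by 1.64 ± 0.05 (adjusted p = 0.000217). Several of the others were near background: the disintegrin gene Adam32 was at least 3.71-fold higher, the lipocalin gene Obp3 at least 3.15-fold, the matrix protease gene Mmp28 at least 3.33-fold and the aldehyde oxidase gene Aox4 at least 2.79-fold, none of them well above background on either day 3 array.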

How the data were processed

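Total RNA from rat hippocampus was read on single-colour 8x60K Agilent arrays, 2 per group, all on 1 slide. The deposited scanner files hold linear intensity values from Agilent Feature Extraction 11.5.1.1; per the file headers, the processed intensity is background-subtracted and detrended, with surrogates for dim spots. The authors' deposited value table is log2, with scaling and centring not stated. The medians of its columns were -3.24 and -3.23 for the normoxia arrays; day 1 had -3.27 and -3.26, day 3 had -3.34 and -3.39, and day 7 had -3.51 and -3.53. After removal of 1 constant per array, 96.9% to 97.6% of its values lay within 0.05 of the log2 processed intensity, so its direction and log base are settled and its centring is not. It was used as an alternative. Probe positions are those of the scanner files, on rn4.

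Log2 processed intensity minus the array's 75th percentile was averaged over spots of a probe. Of 30367 probes, 24678 were complete and passed the scanner software's background test on both arrays of some group. The brightest kept probe stood for each of 21296 genes, 14440 of them with a symbol. Symbols are those of the array design, updated through RefSeq accessions. Where neither array of a group passed that test, the probe has only a bound: "at least" folds set the mean of the brighter group against, per array, the higher of the lowest signal well above background and the probe's own. Other probes of a gene were counted where they were well above background on all 4 arrays.

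One model with 4 group means over all 8 arrays (limma 3.58.1, R 4.3.3) gave the day 7 minus day 3 contrast, with Benjamini-Hochberg adjustment and 4 residual degrees of freedom. The fit was tested on simulated data. Figures and promoter searches used Python 3.11.15. Alternatives were quantile, median and cyclic loess scaling, normexp with offset 50, the authors' values, 3 filters, the mean of probes, an intensity trend, the 4 arrays alone, a replicate block, a 2-fold minimum, GC correction and leaving out each array. The array number limits precision. Genes named are the 15 largest rises and falls with a symbol, up to 6 members with the smallest p from each list, and 18 genes given whatever their result; others are marked, and a few are not reported here. The gene lists, the comparison and these rules were chosen with earlier results of these data known.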

Additional observations from a re-analysis of the deposited data

How the results depend on the processing

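The calls rest on 2 arrays a group, and fine differences of dim genes are limited by signal over background: in the dimmest decile the 2 day 7 arrays differed by a median of 0.523 and the 2 day 3 arrays by 0.494. With the 4 arrays alone in the fit, 2912 genes were higher and 2446 lower, a fit with fewer degrees of freedom. A minimum change of 2-fold left 191 higher and 459 lower. Leaving out 1 array gave 3623 to 4747 higher and 3056 to 3576 lower genes. The titles mark 1 array of each group as the replicate, and arrays with the same mark did not deviate together (r of -0.15 to 0.05 between groups), so the mark was not taken as a pairing. With it as a replicate block, 4756 genes were higher and 3672 lower. The other 11 alternatives gave 4006 to 7654 higher and 2658 to 4042 lower genes. Of the 196 called genes named here, 186 kept their call under every alternative in which they were tested, the minimum change aside. Stricter filters leave some of them out, and most were named for a small p or a large change, which favours keeping a call. Of all 5146 higher and 3888 lower genes, 3716 and 3137 kept their call under quantile normalization. With the 4 arrays alone 2822 and 2374 did. Calls were lost for Ak4, Rora, Mx2, Narf, Adm, RatNP-3b, Tap1, Usp18, Mmp9 and Sulf1 under at least 1 of them, and the cause was not tested. Narf turned to -0.025 with the mean of its probes. Among genes that did not pass the test, Fos was 0.078 under quantile normalization, 0.088 under median centring, 0.044 under cyclic loess and 0.013 with normexp, and lay between -0.085 and 0.043 without 1 array. Pdk1 was 0.043, 0.061 and 0.015 under quantile normalization, median centring and cyclic loess. Mbp was -0.068 under quantile normalization, -0.18 under cyclic loess and -0.10 with the GC trend removed, and lay between -0.010 and 0.065 without 1 array. Hif3a was -0.39 in the authors' values and lay between -0.50 and 0.61 without 1 array. Sgk1 was 0.078 under median centring and 0.0016 with normexp, and Slc13a4 was 0.072 with normexp.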

Other observations

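Counts in several other lists are given beside the shares of all genes tested, 24.2% higher and 18.3% lower. Of 31 p53 targets and apoptosis genes, 10 were higher and 7 lower (4 lower under median centring or quantile normalization), with a median of 0.06. Ccng1, which encodes cyclin G1, had log2 levels of 1.73 and 1.90 on day 7, against 0.24 and 0.32 on day 3 (1.53 ± 0.07, limma, adjusted p = 0.000363), and Bbc3, a promoter of cell death, changed by 0.47. Lower members were Bax, a promoter of cell death (-0.94, and -1.16 on its other probe), Bcl2, an inhibitor of it (-1.03), and Ei24 (-1.39). Of 35 cell cycle genes, 11 were higher (21 under median centring) and 1 lower (0 to 2 with any 1 array left out), so that fewer of its members were called than the 42.4% of all genes. Birc5, which encodes the mitotic protein survivin, had -2.35 and -2.42 on day 7, against -3.78 and -3.79 on day 3 (1.40 ± 0.06, adjusted p = 0.000336), and the mitotic kinesin gene Kif11 changed by 0.58.

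Of 28 genes of the unfolded protein and integrated stress responses, 9 were lower and 7 higher (3 or 4 higher without any 1 of the 4 arrays compared). The chaperone gene Hspa5 had 3.99 and 4.04 on day 7, against 4.54 and 4.52 on day 3 (-0.51 ± 0.03, limma, adjusted p = 0.000756), and the disulfide isomerase gene Pdia3 changed by -1.0, the transcription factor gene Atf5 by -0.56 and Hyou1, another chaperone gene, by 0.35. Of 25 glucocorticoid response genes, 11 were higher and 5 lower, with a median of 0.06 that turned to -0.02 under cyclic loess, where 7 were higher and 8 lower; without day 3 replicate 1, 7 were higher. Fkbp5, which restrains the glucocorticoid receptor, had 2.30 and 2.29 on day 7, against 1.77 and 1.67 on day 3 (0.58 ± 0.05, adjusted p = 0.00137), and Tsc22d3 changed by 0.82, whereas Sgk1 did not pass the test (-0.03 ± 0.05). Of 17 clock genes, 6 were higher and 1 lower (1 or 2 lower with any 1 array left out), with Cry1, a repressor of the clock, at 0.44 and Per2 at -0.25. Among 27 voltage-gated sodium and calcium channel genes, 12 were higher and 6 lower, with the AMPA receptor auxiliary genes Cacng3 and Cacng8 at -0.81 and -0.54, and the AMPA receptor subunit gene Gria1 itself changed by -0.59.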
